A study of Mus musculus with 20 samples.

Results

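Kidneys of ARLmon/Y mice that received testosterone were set beside kidneys of wild type (WT) mice that received vehicle, a mutant receptor with hormone against a normal receptor with hormone withdrawn. The comparison took in every library that the labels put in those groups, 10 of the 20 in the series, and all genes of their count table. The ARLmon testosterone kidneys (libraries GC078612 to GC078616) came from mice carrying the ARLmon allele on their X chromosome and received testosterone as replacement therapy for 4 days after orchidectomy. The WT vehicle kidneys (GC078602 to GC078606) came from wild type C57BL/6J mice and received vehicle for the same 4 days after orchidectomy. All mice were castrated and of 1 strain background per the labels, and the labels give neither an age nor a dose. The series also holds 5 ARLmon vehicle and 5 WT testosterone libraries, prepared from snap-frozen kidneys with the same stranded mRNA kit. Their levels are given for orientation, but they also entered the shared fit behind every SE and p-value. With the 10 compared libraries fitted alone, 255 genes were called instead of 471. Because genotype and hormone both differ between ARLmon testosterone and WT vehicle, their parts in any difference cannot be told apart from these 10 libraries alone. Nothing in the labels ties each library to its own animal, so p-values measure the spread between libraries within a group, pooled over 4 groups. That spread may in part be technical.

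The androgen receptor is a transcription factor of the nuclear receptor family that binds testosterone or dihydrotestosterone, pairs with a second receptor molecule and acts on genes near its DNA sites. ARLmon is a knock-in allele of the receptor gene with a substitution in the ligand-binding domain that impairs pairing through that domain. In the mouse kidney the receptor acts mainly in the proximal tubule, where androgens raise genes of transport, lipid and steroid metabolism and make male and female kidneys differ. Whole-kidney RNA mixes all cell types, so fewer cells of a type and less RNA per cell cannot be told apart.

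Reads assigned to genes numbered 8618311 to 38101526 per library, and mitochondrial genes took 6.86% to 10.4% of them. On the first principal component over all 20 libraries, with 41.4% of the variance, ARLmon testosterone kidneys lay between 7.22 and 37.7 and WT vehicle kidneys between -16.4 and 12.8. The second component, with 16% of the variance, set apart the WT vehicle library GC078604 at 50.2 and the ARLmon testosterone library GC078615 at -40.6. On it the WT vehicle library GC078606 lay at 23.9 and the ARLmon vehicle library GC078618, outside the main comparison, at 44.7. Results that turn on single libraries are given with and without those libraries. Markers of the proximal tubule, segments 1 and 2, summed to 23470.0 to 26600.0 reads scaled to library size (CPM) in ARLmon testosterone and 18340.0 to 28420.0 CPM in WT vehicle kidneys, and those of podocytes, endothelium, loop of Henle and collecting duct were present in all 10 libraries. Of the adrenal marker list 2 of 12 genes, and of the pancreas list 1 of 10, had enough reads to be tested.

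Of 15549 genes tested, 471 differed between ARLmon testosterone and WT vehicle kidneys at a Benjamini-Hochberg adjusted p below 0.05 (edgeR quasi-likelihood test), which is 3.03% of them. Of these, 195 (1.25%) were higher and 276 (1.78%) were lower in ARLmon testosterone. Their median size was 0.82 on the log2 scale, and 191 differed at least 2-fold, 82 of them higher and 109 lower. In 349 of the 471 no ARLmon testosterone library overlapped any WT vehicle library in CPM, while 607 of all tested genes (3.9%) showed such a gap. The median log2 difference over all tested genes was 0.01. With library size as the only scaling this median was 0.10 and the calls were 370 higher and 193 lower, and on the authors' deposited log2 values they were 255 higher and 178 lower. The direction of the split therefore depended on the scaling, and no single gene with a change near the size of that shift is described as a rise or fall below. Medians and sign counts of gene lists are given below and move with the scaling too.

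**Figure D1:**
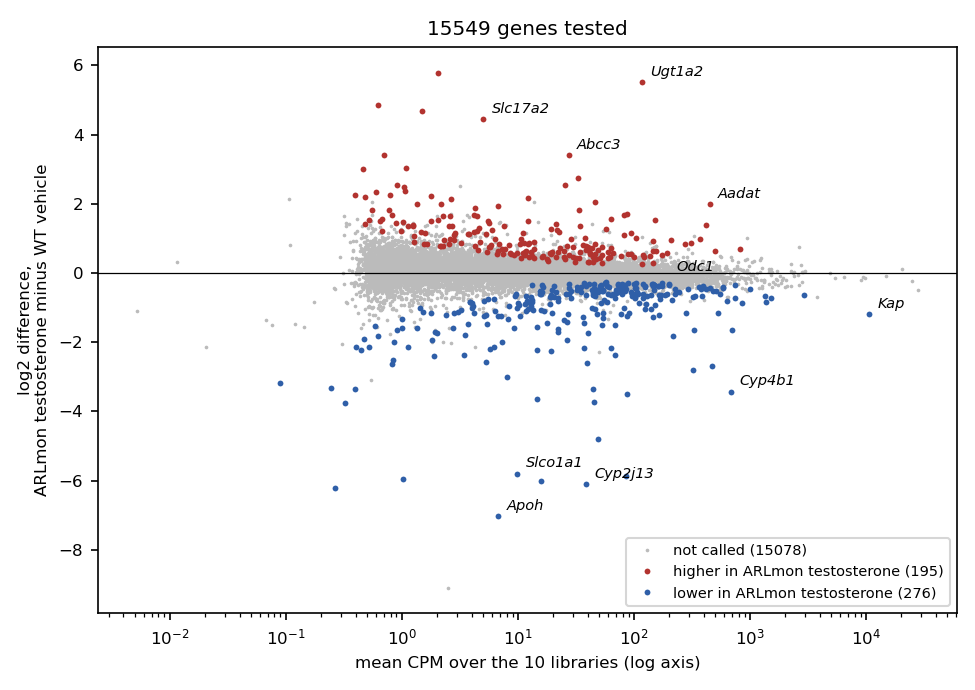
Log2 difference, ARLmon testosterone minus WT vehicle, against mean CPM over the 10 libraries on a log axis, with 1 point per tested gene. The 195 genes called higher and the 276 called lower are coloured, and most of the 15549 points lie close to 0.

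Of the best known androgen-regulated kidney genes, Kap fell and Odc1 did not pass the test. Kap, which encodes the kidney androgen-regulated protein of the proximal tubule (chr6:133849851-133853762, GRCm38, GENCODE M21), had 7242, 5545, 6425, 8159.8 and 4881 CPM in the ARLmon testosterone libraries, against 13352, 11889, 28612, 10162 and 9972 CPM in the WT vehicle libraries. All 5 ARLmon testosterone libraries were below all 5 WT vehicle libraries, and Kap fell by a log2 difference of -1.198 ± 0.31 (SE, adjusted p = 0.0387). GC078604 was far above the other WT vehicle libraries, and without it the difference was -0.81 and not called, as was also the case without any one of GC078612, GC078613, GC078614 and GC078616. Odc1, the rate-limiting enzyme of polyamine synthesis (chr12:17544794-17551505), had 165, 192, 168, 184 and 232 CPM in the ARLmon testosterone libraries, against 187, 206, 263, 189.6 and 186 CPM in the WT vehicle libraries. Those ranges overlapped, and the log2 difference of Odc1 was -0.13 ± 0.12, with a 95% interval of -0.37 to 0.11 (adjusted p = 0.646). For orientation, WT testosterone kidneys held 39464 ± 5352 CPM of Kap and 1509.7 ± 119 CPM of Odc1 (SD, n = 5).

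The promoters of 4 of the 24 largest changes are shown, a pair that fell and a pair that rose, as examples with and without the letters of the receptor's DNA sites. They were chosen with values and letters known, and Apoh, with 1 half-site, and Cyp2j13, with none, moved further than Pzp and are not printed. They are from RefSeq (GRCm38.p6) and run from 250 bases before to 50 bases after the annotated start, 5′ to 3′ on the gene's strand. Capitals mark the half-site AGAACA or its complement TGTTCT, bound by androgen and glucocorticoid receptors, or the letters TTCNNNGAA, the core bound by STAT factors, which prolactin and growth hormone act through. Pzp lies at chr6:128526671-128526970, minus strand, Slco1a1 at chr6:141946913-141947212, minus strand, Ugt1a2 at chr1:88200361-88200660, plus strand, and Slc17a2 at chr13:23806743-23807042, plus strand.
Pzp: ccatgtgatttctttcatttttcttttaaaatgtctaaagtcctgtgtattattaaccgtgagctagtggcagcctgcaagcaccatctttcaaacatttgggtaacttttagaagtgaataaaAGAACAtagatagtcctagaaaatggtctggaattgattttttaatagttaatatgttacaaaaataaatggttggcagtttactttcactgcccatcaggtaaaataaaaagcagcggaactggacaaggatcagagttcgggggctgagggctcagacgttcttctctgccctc
Slco1a1: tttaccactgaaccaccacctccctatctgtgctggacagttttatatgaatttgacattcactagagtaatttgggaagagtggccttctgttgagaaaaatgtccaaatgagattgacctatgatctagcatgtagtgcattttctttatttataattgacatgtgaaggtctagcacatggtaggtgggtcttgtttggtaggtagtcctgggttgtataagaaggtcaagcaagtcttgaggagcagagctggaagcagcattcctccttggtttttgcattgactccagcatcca
Ugt1a2: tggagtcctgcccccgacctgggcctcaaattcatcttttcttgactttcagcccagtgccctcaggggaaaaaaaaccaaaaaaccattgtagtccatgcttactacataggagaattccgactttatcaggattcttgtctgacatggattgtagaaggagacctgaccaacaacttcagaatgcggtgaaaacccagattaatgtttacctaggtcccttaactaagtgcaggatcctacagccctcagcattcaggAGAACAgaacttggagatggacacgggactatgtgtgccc
Slc17a2: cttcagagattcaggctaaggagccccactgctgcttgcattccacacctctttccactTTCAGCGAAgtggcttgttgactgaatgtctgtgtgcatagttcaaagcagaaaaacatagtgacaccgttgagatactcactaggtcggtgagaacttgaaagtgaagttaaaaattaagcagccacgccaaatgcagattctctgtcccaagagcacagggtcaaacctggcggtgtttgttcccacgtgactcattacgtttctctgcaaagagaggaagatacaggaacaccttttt
Pzp and Ugt1a2 each held 1 half-site, which in Ugt1a2 stood after the start, Slc17a2 held 1 STAT core, and Slco1a1 held neither. The half-site, on either strand, was present in 18.9% of 190 promoters of genes that fell and 15.9% of 138 promoters of genes that rose. It was in 12.8% of 10975 promoters of tested genes but in 19.2% of all 27025 promoters, so the comparison depends on the background chosen. The STAT core was in 6.84% and 5.07% of the promoters of genes that fell and rose, against 6.91% of those of tested genes and 8.37% of all. Of the 24 largest changes 18 had a promoter in the table. The letters were chosen with the values known, a match is not a site in use, and the shares were not tested.

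The 12 largest falls took in 4 cytochrome P450 genes, 4 genes of secreted proteins, 2 solute carriers, Timd2 and Acsm3. Only genes whose groups of libraries did not overlap could enter these falls, so that gap is no separate result. Cyp2j13, a cytochrome P450 of the Cyp2j family (chr4:96027534-96077546), had 1.87, 0.762, 0.599, 2.13 and 0.131 CPM in the ARLmon testosterone libraries, against 62.4, 84.9, 84.8, 101 and 49.6 CPM in the WT vehicle libraries. Every ARLmon testosterone library held less than every WT vehicle library, and the log2 difference was -6.103 ± 0.35 (adjusted p = 1.2e-10). Pzp, which encodes pregnancy zone protein, a protease inhibitor of the alpha-2-macroglobulin family (chr6:128483567-128526720), had 0.445, 0.293, 0.524, 0.507 and 0.588 CPM in the ARLmon testosterone libraries, against 40.7, 35.9, 34.4, 29.005 and 14.3 CPM in the WT vehicle libraries. Pzp stayed below 1 CPM in each mutant kidney and fell by a log2 difference of -6.02 ± 0.30 (adjusted p = 2.44e-11).

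Slc7a13, the aspartate, glutamate and cystine carrier of the third proximal tubule segment (chr4:19818725-19842218), had 0.889, 2.11, 3.37, 6.28 and 1.31 CPM in the ARLmon testosterone libraries, against 209, 226, 148, 199 and 66.03 CPM in the WT vehicle libraries. Slco1a1, an uptake carrier of organic anions and steroid conjugates whose promoter is shown above (chr6:141907282-141946962), had 0.356, 0.234, 0.374, 0.253 and 0.523 CPM in the ARLmon testosterone libraries, against 18.5, 15.4, 22.4, 18.3 and 22.9 CPM in the WT vehicle libraries. The groups were far apart for both genes, with log2 differences of -5.86 ± 0.39 for Slc7a13 and -5.801 ± 0.30 for Slco1a1 (adjusted p = 1.06e-09 and 2.44e-11). Cyp7b1, the oxysterol and steroid 7-alpha-hydroxylase (chr3:18071950-18243338), had 4.54, 3.398, 3.44, 2.13 and 3.79 CPM in the ARLmon testosterone libraries, against 98.2, 56.96, 64.2, 151 and 103 CPM in the WT vehicle libraries. Cyp4b1, a P450 of fatty acids and xenobiotics and the most abundant of the 12 largest falls (chr4:115624725-115647723), had 91.9, 146, 87.5, 156 and 106 CPM in the ARLmon testosterone libraries, against 1135, 1292, 1359, 1259 and 1297 CPM in the WT vehicle libraries. Cyp7b1 changed by -4.79 ± 0.30 and Cyp4b1 by -3.43 ± 0.19, each with no overlap (adjusted p = 6.28e-10 and 5.99e-11).

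The same group held Timd2, a receptor for ferritin in the mouse (-3.73), Cyp4a12a, an omega-hydroxylase that makes 20-HETE (-3.63), Acsm3, a medium-chain acyl-CoA synthetase (-3.51), and Azgp1, the secreted zinc-alpha-2-glycoprotein (-3.35). Their adjusted p ran from 2.44e-11 for Timd2 to 5.87e-08 for Cyp4a12a. Azgp1 averaged 7.94 ± 1.803 CPM in ARLmon testosterone and 80.9 ± 8.95 CPM in WT vehicle kidneys (SD, n = 5 each). Acsm3 averaged 14.1 ± 2.48 CPM in ARLmon testosterone and 161 ± 38.01 CPM in WT vehicle kidneys.

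Apoh and Serpina1b, which encode plasma proteins made mainly in liver, made up the rest. Apoh, beta-2-glycoprotein I of plasma (chr11:108343354-108414396), had 0.178, 0.117, 0, 0.101 and 0.0653 CPM in the ARLmon testosterone libraries, against 3.09, 3.08, 4.36, 10.8 and 46.2 CPM in the WT vehicle libraries. Its log2 difference of -7.02 ± 0.92 was the largest among the named genes (adjusted p = 5.9e-05), but GC078606 held most of the reads, and without it the difference was -5.78 and still called. Serpina1b, an alpha-1-antitrypsin (chr12:103728156-103830373), ranged over 0.588 to 5.07 CPM in ARLmon testosterone and 7.05 to 35.4 CPM in WT vehicle kidneys and fell by 3.004 ± 0.60 (adjusted p = 0.00473). Reads of Serpina1b can be shared with its near-identical copies, and Apoh lies opposite Prkca. The strand setting of the authors' counting is not given in the sources used here.

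**Figure D2:**
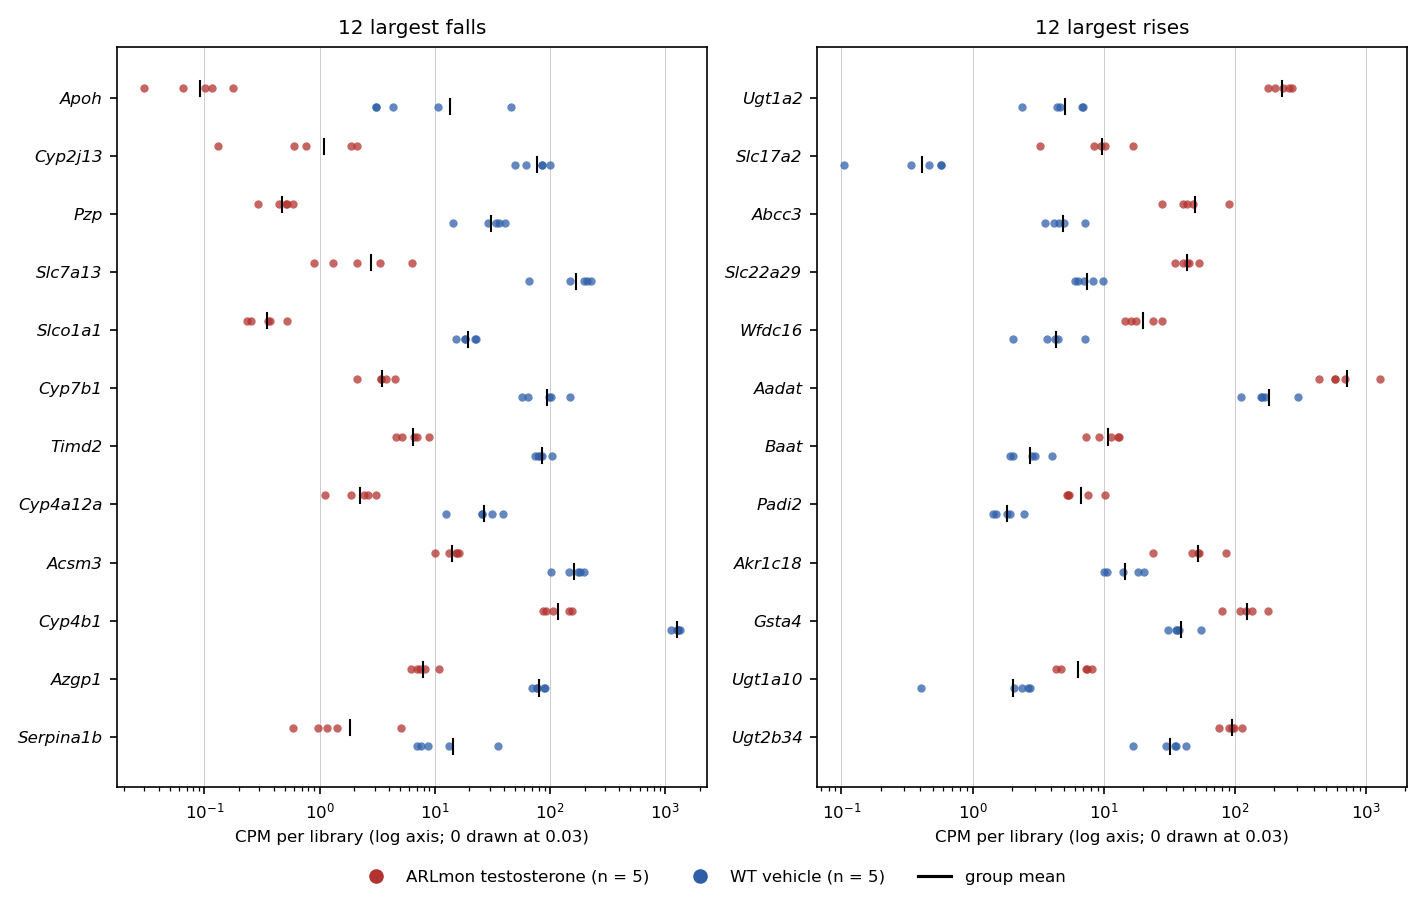
CPM per library on a log axis for the 12 largest falls (left) and the 12 largest rises (right) among called genes whose higher group averaged 5 CPM or more and whose groups do not overlap. Each dot is 1 of 5 libraries of ARLmon testosterone (upper dots) or WT vehicle (lower dots) and each bar is a group mean. Apoh in WT vehicle stretches from 3.08 to 46.2 CPM, while Cyp4b1 and Timd2 form tight groups.

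The 12 largest rises took in 3 glucuronosyltransferase genes, 2 solute carriers, the efflux pump gene Abcc3, 5 genes of other enzymes and Wfdc16. For them too, a lack of overlap was a condition of entry and is no separate result. Ugt1a2, which adds glucuronic acid to small molecules and whose promoter is shown above (chr1:88200601-88218997), had 204, 181, 232, 274 and 258 CPM in the ARLmon testosterone libraries, against 6.89, 6.997, 2.36, 4.37 and 4.67 CPM in the WT vehicle libraries. The groups were more than an order of magnitude apart in every pair of libraries, and the log2 difference was 5.51 ± 0.28 (adjusted p = 2.44e-11). Ugt1a2 shares its last exons with the other Ugt1a genes on the same strand, so reads can be split between them, and Ugt1a10 changed by 1.66 ± 0.37 (adjusted p = 0.0132).

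Slc17a2, a phosphate and organic anion carrier of the Slc17 family (chr13:23806993-23825180), had 9.61, 10.3, 8.45, 16.8 and 3.27 CPM in the ARLmon testosterone libraries, against 0.463, 0.104, 0.571, 0.5796 and 0.342 CPM in the WT vehicle libraries. Abcc3, an efflux pump for glucuronides and bile acids (chr11:94343295-94392997), had 48.03, 43.4, 40.5, 90.9 and 28.1 CPM in the ARLmon testosterone libraries, against 4.58, 3.603, 4.16, 4.95 and 7.17 CPM in the WT vehicle libraries. Both rose with no overlap, Slc17a2 by 4.44 ± 0.40 and Abcc3 by 3.395 ± 0.32 (adjusted p = 2e-07 and 4.95e-07). Slc22a29, a carrier of the organic anion transporter family (chr19:8160165-8218900), had 40.5, 35.3, 43.5, 44.7 and 53.8 CPM in the ARLmon testosterone libraries, against 8.23, 9.82, 7.13, 6.32 and 6.03 CPM in the WT vehicle libraries. Slc22a29 was tightly grouped on both sides and rose by 2.53 ± 0.16 (adjusted p = 8.2e-10).

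Aadat, which transaminates aminoadipate and kynurenine (chr8:60505932-60545677), was the most abundant of the 12 largest rises and had 693, 582, 584, 1287 and 436 CPM in the ARLmon testosterone libraries, against 171, 163, 158, 302 and 112 CPM in the WT vehicle libraries. Its log2 difference was 1.98 ± 0.31 (adjusted p = 0.000446). Baat, which joins bile acids to amino acids, rose by 1.94 ± 0.20, and Gsta4, a glutathione transferase for lipid aldehydes, rose by 1.67 ± 0.20. Akr1c18, a 20-alpha-hydroxysteroid dehydrogenase that inactivates progesterone in the mouse, rose by 1.83 ± 0.38. Padi2, a peptidylarginine deiminase, rose by 1.89 ± 0.24, Wfdc16, a small secreted protein with a whey acidic protein fold, by 2.16 ± 0.29, and Ugt2b34 by 1.57 ± 0.22. The adjusted p of these 6 genes ran from 1.7e-06 for Baat to 0.00726 for Akr1c18, and none lost its call when any one library was left out.

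Among the most abundant called genes, 5 beside Kap fell by less than 1 on the log2 scale. Psap, the precursor of the lysosomal saposins, averaged 1153 ± 47.4 CPM in ARLmon testosterone and 1895 ± 258 CPM in WT vehicle kidneys (SD, n = 5 each) and changed by -0.72 ± 0.10 (adjusted p = 0.000125). Slc22a12, the urate carrier of the brush border, averaged 995 ± 98.3 CPM in ARLmon testosterone and 1774 ± 337 CPM in WT vehicle kidneys and changed by -0.83 ± 0.12 (adjusted p = 0.000125). Acsm2 changed by -0.65 ± 0.13, and Sepp1, the selenium carrier selenoprotein P, by -0.67 ± 0.13 (adjusted p = 0.00622 and 0.00348). Aqp1, the water channel of the proximal tubule, changed by -0.46 ± 0.12 (adjusted p = 0.0344), and its call was lost without any one of GC078604, GC078605, GC078612, GC078613, GC078614 and GC078616.

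Of 30 genes listed as raised by androgen in kidney, 18 fell, 1 rose and 11 did not pass the test. Their median log2 difference was -1.27, against 0.01 over all genes. Whether androgen raises each member was not tested. The list was drawn up with results of these libraries known, 23 of its members stand in another list as well, and its direction is not independent evidence. Timd2, a member that fell, had WT testosterone and WT vehicle levels near each other, as given further below. Beside the genes above, those that fell included Cyp2e1, which oxidises ethanol and ketones, at 127 ± 18.6 CPM in ARLmon testosterone and 814 ± 143 CPM in WT vehicle kidneys (-2.68 ± 0.15, adjusted p = 1.27e-10). Cyp2d9, a testosterone 16-alpha-hydroxylase in the mouse, fell by 2.38 ± 0.19, and Slc22a30 fell by 2.18 ± 0.29 (adjusted p = 3.11e-08 and 8.14e-05). Adh1, an alcohol and retinol dehydrogenase, fell by 1.17 ± 0.19, and Hsd17b11 fell by 0.40 ± 0.09 (adjusted p = 0.000501 and 0.0155). Against the list, Abcc4, an efflux pump for cyclic nucleotides and conjugates, rose to 140.2 ± 8.25 CPM in ARLmon testosterone and 69.1 ± 14.7 CPM in WT vehicle kidneys (1.02 ± 0.17, adjusted p = 0.000956).

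The 11 that did not pass had log2 differences between -1.59 and 0.11. Gusb, the lysosomal beta-glucuronidase long used as an androgen marker in mouse kidney, had 32.4 ± 3.02 CPM in ARLmon testosterone, 125 ± 19.5 CPM in WT testosterone and 36.4 ± 3.58 CPM in WT vehicle kidneys (ARLmon testosterone minus WT vehicle log2 -0.17, interval -0.38 to 0.05, adjusted p = 0.477). Nudt19, a coenzyme A diphosphatase, had 286 ± 63.5 CPM in ARLmon testosterone, 2053 ± 301 CPM in WT testosterone and 264 ± 44.1 CPM in WT vehicle kidneys (ARLmon testosterone minus WT vehicle interval -0.27 to 0.50, adjusted p = 0.834). Hsd11b1, which regenerates active glucocorticoid, had 45.6 ± 11.2 CPM in ARLmon testosterone and 63.9 ± 9.9000 CPM in WT vehicle kidneys (interval -0.83 to -0.14, adjusted p = 0.131). Atp11a, a phospholipid flippase, had an interval of -0.89 to 0.15, Srd5a2, a testosterone 5-alpha-reductase, -0.86 to 0.52, and Ccl28, a chemokine, -2.54 to -0.65. The others were Odc1, described above, Ctxn3 (-1.35), Slc17a3, a urate and phosphate carrier (-0.34), Angptl7 (-0.30), which lies opposite Mtor, and Rnf180 (-0.11). Without GC078615, in which both were high, Ctxn3 (-2.15) and Slc17a3 (-0.54) were called. Ccl28, at -1.59 over all libraries, was called without GC078602 (-1.71) or GC078604 (-1.801) and was -1.04 and not called without GC078605. DESeq2 called Ctxn3 and Ccl28, which made 21 of the list against 19.

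Of 17 genes listed as lowered by androgen, 7 rose, 1 fell and 9 did not pass, with a median of 0.40. This list has the same limits as the one before. Prlr, the prolactin receptor (chr15:10177238-10349180), had 220.4, 182, 208, 323 and 186 CPM in the ARLmon testosterone libraries, against 114, 122, 52.2, 49.7 and 50.3 CPM in the WT vehicle libraries. The groups did not overlap, and Prlr rose by 1.52 ± 0.26 (adjusted p = 0.00102). Kynu, kynureninase, rose by 0.74 ± 0.14 (adjusted p = 0.00426). Gc, the vitamin D binding protein, rose by 1.16 ± 0.30, and Slc7a12, an amino acid carrier of the third segment, by 2.04 ± 0.53 (adjusted p = 0.0379 and 0.03699). Leaving out any one of GC078602, GC078603, GC078604, GC078605, GC078612, GC078614 and GC078616 ended the call of Gc, and so did any one of GC078602, GC078603, GC078604, GC078606 and GC078615 for Slc7a12, whose difference was 1.199 without GC078615. Cyp2a4, a steroid 15-alpha-hydroxylase of mouse, fell by 1.83 ± 0.25 (adjusted p = 8.14e-05). Slc22a8, an organic anion transporter, ranged over 939 to 1216 CPM in ARLmon testosterone and 496 to 1248 CPM in WT vehicle kidneys and did not pass (adjusted p = 0.752). Cyp4a14, a fatty acid hydroxylase, ranged over 397 to 491 CPM in ARLmon testosterone and 57.2 to 2034 CPM in WT vehicle kidneys, so that its spread in WT vehicle covered the whole of the other group (adjusted p = 0.826). The other members that did not pass had log2 differences of 0.78 for Slc22a7, 0.40 for Abcb1b, 0.39 for Hao2, 0.02 for Napsa, -0.15 for Slco1a6, -0.16 for Kcnip2 and -0.77 for Cyp2d12. The remaining ones that rose were Slc22a29, Abcc3 and Ugt1a2, described above.

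Steroid metabolism and the cytochrome P450 genes held calls in both directions. Of 24 steroid metabolism genes 2 rose and 6 fell (33.3% called, median -0.33). Of 35 P450 genes 1 rose and 9 fell (28.6% called, median -0.21). Of all genes tested 3.03% were called. Hsd17b14, an estradiol and testosterone dehydrogenase, rose to 18.2 ± 3.87 CPM in ARLmon testosterone and 6.32 ± 1.73 CPM in WT vehicle kidneys (log2 1.498 ± 0.24, adjusted p = 0.000603). The P450 gene that rose was Cyp2d26 (0.84 ± 0.14, adjusted p = 0.000956), while Cyp4a12b, whose reads can be shared with Cyp4a12a, fell by 2.01 ± 0.34 (adjusted p = 0.001103).

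The conjugating enzymes split, with 6 of 38 higher and 7 lower (34.2% called, against 3.03% of all genes, median -0.15). The Ugt1a genes named above and Gsta2 (0.96 ± 0.21, adjusted p = 0.0114) rose. Ugt1a7c, which overlaps Ugt1a2 on the same strand, went the other way (log2 -0.67, adjusted p = 0.0375). Over the 20 libraries Ugt1a7c held 41896 reads and Ugt1a2 36491. Ugt2b38 (-1.66 ± 0.17), Ugt2b37 (-2.22 ± 0.46) and Ugt8a, which makes galactosylceramide (-2.601 ± 0.18), fell (adjusted p = 1.93e-06, 0.00662 and 3.77e-09). Ugt2b37 ranged over 1.05 to 18.5 CPM in ARLmon testosterone and 20.1 to 26.6 CPM in WT vehicle kidneys, with GC078612 far above the other mutant libraries, and without GC078612 its difference was -3.43. Ugt2b genes are near-identical in part, so their reads can be split.

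Transporter lists held calls in both directions, with 3.03% of all genes tested called. Of 34 organic anion and cation carriers 3 rose and 9 fell (35.3% called, median -0.13). Beside those above, Slc22a6, the basolateral organic anion exchanger OAT1, fell by 0.81 ± 0.12 and Slc22a27 rose by 2.01 ± 0.31 (adjusted p = 0.000382 and 0.000391). Of 16 ATP-binding cassette pumps 3 passed (18.8%), all higher, namely Abcc3, Abcc4 and Abcb1a, the P-glycoprotein gene (0.83 ± 0.21, adjusted p = 0.0344). The call of Abcb1a was lost without any one of GC078604, GC078605, GC078613, GC078615 and GC078616. Of 29 amino acid carriers 2 rose and 1 fell (10.3% called), Slc7a13 being the one that fell.

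Lipid gene lists held a few calls in both directions, with 3.03% of all genes tested called. Of 32 fatty acid oxidation genes 1 rose and 3 fell (12.5% called, median -0.21). Among those that fell, Acox3, a peroxisomal oxidase of branched-chain fatty acids, fell by 0.63 ± 0.09 and the thioesterase Acot12 fell by 0.88 ± 0.12 (adjusted p = 0.000133 and 9.47e-05). Fabp1, the liver fatty acid binding protein, rose to 3.01 ± 0.769 CPM in ARLmon testosterone and 1.09 ± 0.465 CPM in WT vehicle kidneys (1.54 ± 0.29, adjusted p = 0.00255). Of 15 fatty acid synthesis genes 3 rose and 2 fell (33.3% called, median 0.32). Elovl6, a fatty acid elongase, had 66.1, 74.5, 85.7, 103 and 79.2 CPM in the ARLmon testosterone libraries, against 54.3, 30.2, 26.2, 29.7 and 30.1 CPM in the WT vehicle libraries. The groups did not overlap, although GC078602 lay nearer to the mutant libraries, and Elovl6 rose by 1.26 ± 0.19 (adjusted p = 0.000293). Fasn, fatty acid synthase, rose by 1.37 ± 0.35 (adjusted p = 0.0336), overlapped in GC078602 at 465 CPM, and lost its call without any one of GC078603, GC078604, GC078605, GC078606, GC078614, GC078615 and GC078616. Me1, which supplies NADPH for synthesis, fell by 0.47 ± 0.11 (adjusted p = 0.0155) and lost its call without GC078613. Of 21 cholesterol synthesis genes 0 passed the edgeR test, 5 had an unadjusted p below 0.05, and DESeq2 called 2. Of 74 respiratory chain genes 0 passed in edgeR, DESeq2 or limma-voom, and 0 had an unadjusted p below 0.05.

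**Figure D3:**
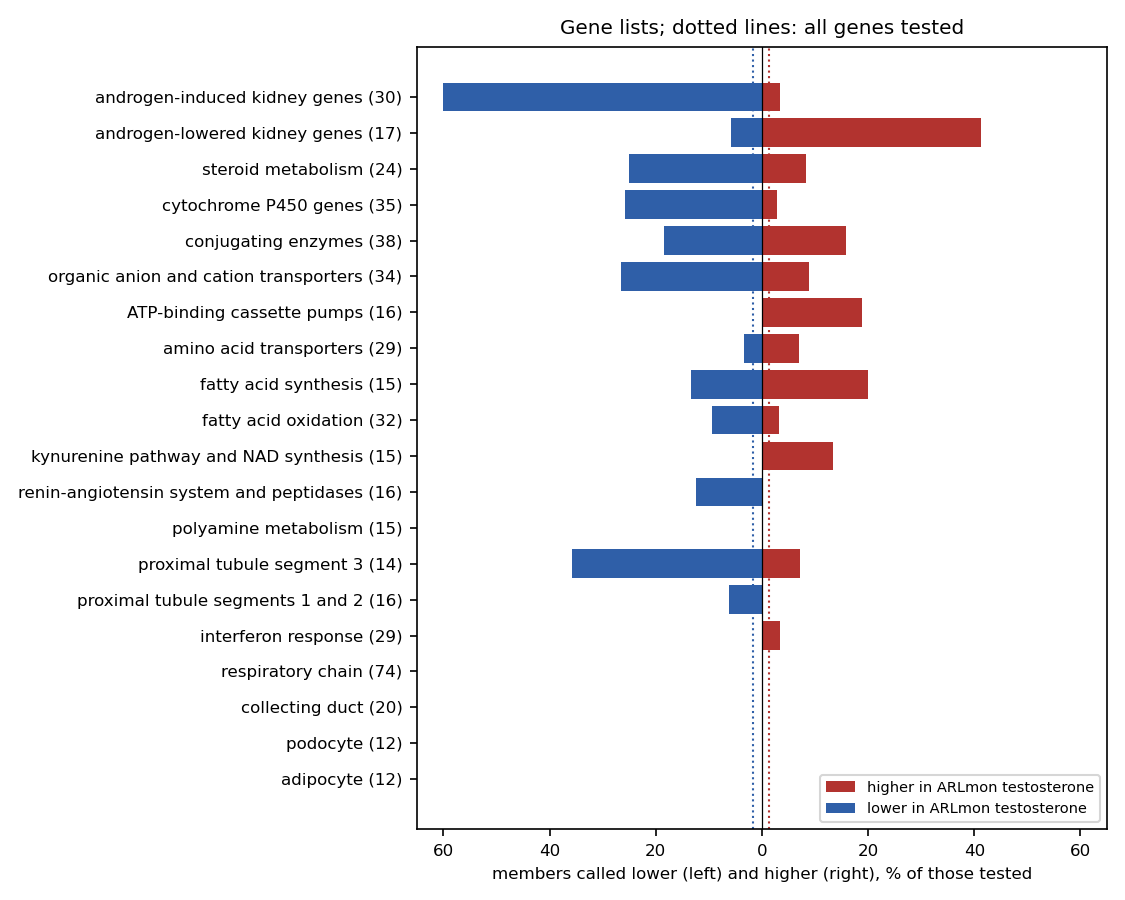
Share of the tested members of 20 gene lists (number tested in brackets) called lower (left) or higher (right) in ARLmon testosterone than in WT vehicle. Dotted lines give 1.78% and 1.25% for all genes tested. The androgen-induced list reaches furthest left with 18 of 30 and the androgen-lowered list furthest right with 7 of 17. All 20 lists were chosen with earlier results of these data known, so their places are not independent evidence.

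Smaller groups held at most 2 calls each, with 3.03% of all genes tested called. With so few calls, each share below rests on single genes. Of 16 renin-angiotensin genes 2 fell (12.5%). They were Agt, angiotensinogen (-0.73 ± 0.15), and Prcp, a carboxypeptidase that cleaves angiotensin II (-0.50 ± 0.11), with adjusted p = 0.00717 and 0.00804. Of 15 kynurenine pathway genes Aadat and Kynu were the 2 that passed (13.3%). Of 17 genes shared by androgen and glucocorticoid receptors 1 fell (5.88%). It was the chaperone Fkbp5 (-1.18 ± 0.28, adjusted p = 0.0201), which reached 128 CPM in GC078606. The call of Fkbp5 was lost without any one of GC078605, GC078606, GC078612, GC078613 and GC078614. Of 27 other hormone receptor and signalling genes (7.41% called), 1 rose, Prlr, and 1 fell. The latter was Rxra, the partner of many nuclear receptors, which fell by 0.35 ± 0.08 (adjusted p = 0.00974). Of 23 antioxidant genes (8.70% called), 1 rose, Gsta2, and 1 fell, the enzyme gene Nqo1, by 0.74 ± 0.12 (adjusted p = 0.000626). The call of Rxra was lost with library size as the only scaling, on the deposited log2 values and with the 10 libraries fitted alone. Of 15 polyamine genes 0 passed in edgeR, DESeq2 or limma-voom, and 0 had an unadjusted p below 0.05.

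Of 14 markers of the third proximal tubule segment 5 fell and 1 rose (42.9% called, median -0.27). Of 16 markers of segments 1 and 2 only Slc22a6 was called, and it fell (6.25%, median 0.00). Of all genes tested 3.03% were called. All 6 called members of the segment 3 list also stand in the androgen lists above. The members of these lists are also hormone targets, so a change in them and a change in the share of a segment cannot be told apart.

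Most markers of other cell types had higher values in ARLmon testosterone, though not in every list, and few passed the test. All 12 podocyte markers had a positive log2 difference (median 0.27), as did 14 of 15 endothelial (0.18), 18 of 20 collecting duct (0.23) and 13 of 14 fibroblast markers (0.23). Of these 4 lists 0 members were called in edgeR, DESeq2 or limma-voom, and 6, 1, 6 and 2 had an unadjusted p below 0.05, in the order given. Podocyte markers summed to 749 to 929 CPM in ARLmon testosterone and 611 to 834 CPM in WT vehicle kidneys. Endothelial sums overlapped too, at 724 to 919 CPM in ARLmon testosterone and 602 to 923 CPM in WT vehicle kidneys. Collecting duct and fibroblast sums also overlapped between the groups. The 12 adipocyte markers were all positive as well, with a median of 0.84, and summed to 517 to 825 CPM in ARLmon testosterone and 210.0 to 668 CPM in WT vehicle kidneys. Adipoq, adiponectin, ranged over 18.7 to 39.7 CPM in ARLmon testosterone and 7.53 to 27.2 CPM in WT vehicle kidneys (adjusted p = 0.198). Of the adipocyte markers 0 were called by any of the 3 tools and 5 had an unadjusted p below 0.05. Other lists were mixed in sign. Positive differences were seen in 9 of 14 loop of Henle markers (median 0.07) and 6 of 10 urothelium markers (0.18). The same held for 3 of 7 liver markers (-0.01) and 2 of 4 skeletal muscle markers (0.10). The scalings tried move all genes together, so they are no test of these medians. In the urothelium, distal tubule, macrophage and liver lists, with 10, 15, 15 and 7 members tested, 1 member each was called, against 3.03% of all genes. Foxq1 of the urothelium list rose by 1.28 ± 0.22, Calb1, the calcium buffer calbindin of the distal tubule, rose by 0.70 ± 0.18 and Ms4a7 of the macrophage list rose by 0.77 ± 0.20 (adjusted p = 0.00122, 0.0345 and 0.0379). Ttr, the thyroid hormone carrier transthyretin of the liver list, fell by 0.88 ± 0.23 (adjusted p = 0.0362), and Aqp1, which the loop of Henle list holds too, is given above. The call was lost for Calb1 without any one of GC078603, GC078605, GC078606, GC078613, GC078614 and GC078616, for Ms4a7 without any one of GC078602, GC078604, GC078605, GC078612, GC078613 and GC078616, and for Ttr without any one of GC078604, GC078605, GC078613, GC078614, GC078615 and GC078616. With library size as the only scaling Ttr was not called. The 29 interferon response genes (27 positive, median 0.39) and 15 antigen presentation genes (15 positive, median 0.34) were mostly positive as well. Of the interferon list 1 member was called (3.45%, against 3.03% of all genes tested), and of the antigen presentation list 0. The called member was Gbp3, an interferon-induced GTPase, which rose by 1.41 ± 0.24 (adjusted p = 0.00114). The part of these cells in the other differences was not tested.

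The library pairs left over, ARLmon vehicle and WT testosterone, share no library with the main comparison and differ in genotype the same way and in hormone the opposite way. There 5841 genes (37.6%) were called, 3035 higher and 2806 lower in ARLmon vehicle. Of the 471 genes of the main comparison, 415 were called there in the same direction, which is 88.1% of the main and 7.11% of the second list. Another 49 were not called there, and 7 were called in the opposite direction. The genotype labels are the same in both comparisons and the libraries of all 4 groups share 1 fit, so the 2 lists are not independent in their spread.

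**Figure D4:**
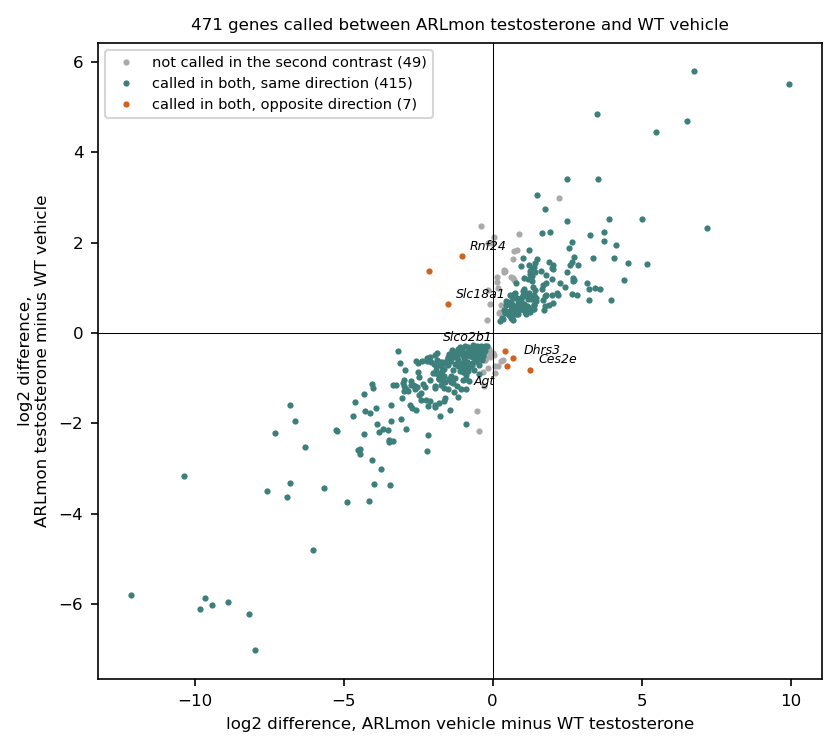
Log2 difference ARLmon testosterone minus WT vehicle (vertical) against ARLmon vehicle minus WT testosterone (horizontal) for the 471 genes called in the first. The 415 genes called in the same direction in both fill 2 quadrants, and the 7 called in opposite directions fall in the others.

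The opposite genes, 1 of them a predicted gene, were named after their values were seen. Slc18a1, a vesicular monoamine carrier, had 189 ± 23.7 CPM in ARLmon testosterone and 121 ± 14.4 CPM in WT vehicle kidneys (log2 0.64 ± 0.11), but 186 ± 12.6 CPM in ARLmon vehicle and 525 ± 77.6 CPM in WT testosterone kidneys (log2 -1.496 ± 0.11). Rnf24, a membrane ubiquitin ligase, was higher in the first comparison (1.700 ± 0.40) and lower in the second (-1.04 ± 0.39). Agt, the carboxylesterase gene Ces2e, the retinal reductase gene Dhrs3 and the carrier gene Slco2b1 were lower in the first and higher in the second. Ces2e changed by -0.81 ± 0.15 and 1.26 ± 0.17, and Agt by -0.73 ± 0.15 and 0.48 ± 0.15. In the first comparison the call was lost for Rnf24 without GC078615, for Dhrs3 without GC078604, and for Slco2b1 without any one of GC078602, GC078606, GC078614 and GC078616. Slc18a1 lies opposite the abundant gene Atp6v1b2, and Rnf24 opposite Pank2.

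Within the fit, the main difference of each gene is the sum of the genotype difference under vehicle (ARLmon vehicle minus WT vehicle) and the testosterone response of ARLmon kidneys (ARLmon testosterone minus ARLmon vehicle), which share libraries with it. Under vehicle 680 genes (4.37%) were called between the genotypes. Between ARLmon testosterone and ARLmon vehicle 0 genes (0.0%) were called in edgeR, DESeq2 or limma-voom, and 813 had an unadjusted p below 0.05 in edgeR. Cyp2j13 differed by -6.701 ± 0.37 between genotypes under vehicle and by 0.60 ± 0.47 between treatments in ARLmon kidneys. Ugt1a2 differed by 5.57 ± 0.28 and -0.06 ± 0.23, and Slco1a1 by -5.94 ± 0.30 and 0.14 ± 0.51. Slc7a13 differed by -7.09 ± 0.42 and 1.22 ± 0.45, the second with an interval of 0.29 to 2.15 that did not survive adjustment (adjusted p = 0.774). Kap differed by -0.85 ± 0.31 and -0.34 ± 0.31. The 95% interval of the ARLmon response was -0.34 to 0.14 for Odc1 and -3.72 to 4.53 for Apoh, whose low counts in ARLmon kidneys left it wide.

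**Figure D5:**
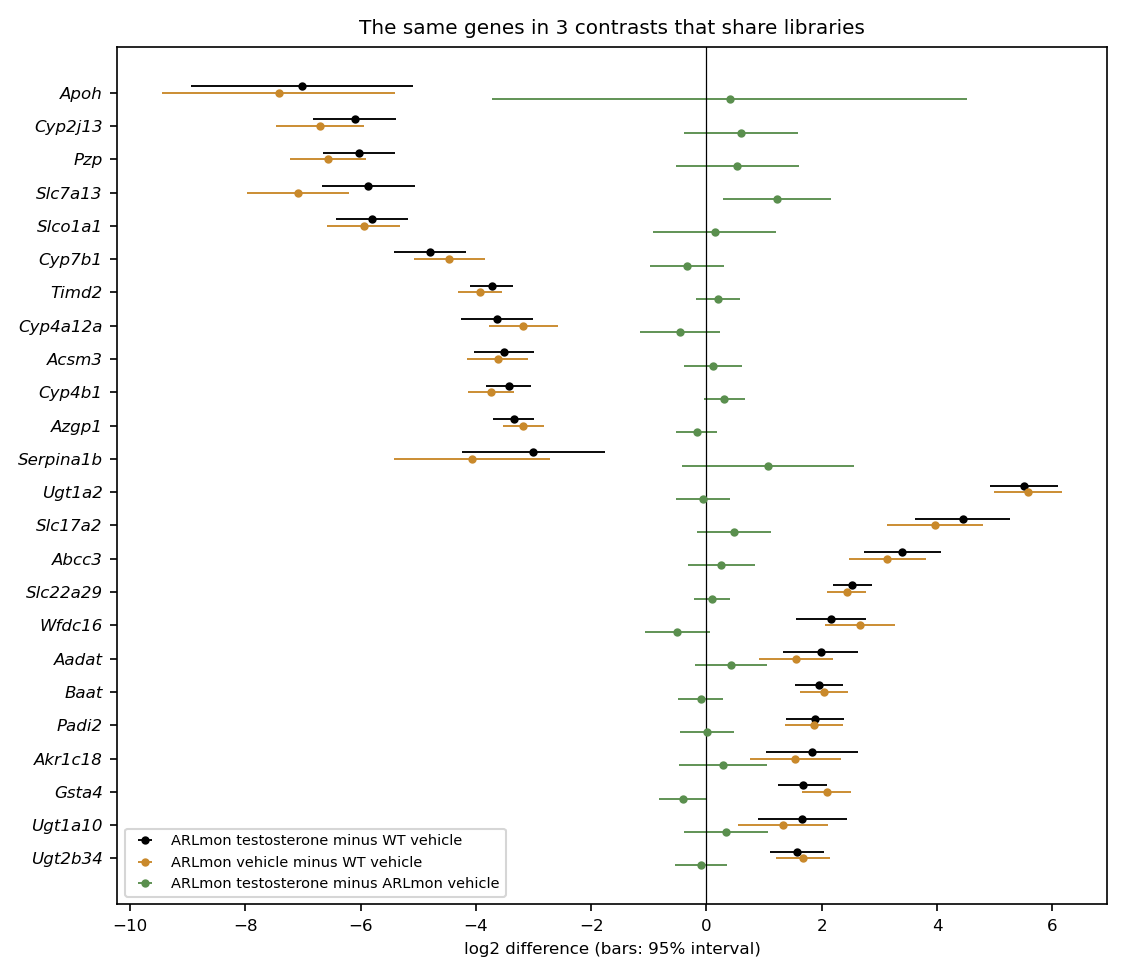
Log2 differences with 95% intervals for the 12 largest falls and 12 largest rises in the main comparison (black), between genotypes under vehicle (ochre) and between treatments in ARLmon kidneys (green). The green intervals lie around 0, apart from Slc7a13 at 1.22 and Gsta4 at -0.41, whose intervals just exclude it. The 3 contrasts share libraries, so they are not independent.

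The order of the 4 groups by level differed between genes. Slco1a1 averaged 0.348 ± 0.115 CPM in ARLmon testosterone and 0.321 ± 0.242 CPM in ARLmon vehicle kidneys, which did not differ beyond their spread, 1431 ± 274 CPM in WT testosterone and 19.5 ± 3.14 CPM in WT vehicle kidneys. Timd2 averaged 6.48 ± 1.67 CPM in ARLmon testosterone and 5.54 ± 1.37 CPM in ARLmon vehicle kidneys, and 99.7 ± 12.3 CPM in WT testosterone against 84.7 ± 11.4 CPM in WT vehicle kidneys, so the WT groups were near each other. Aadat averaged 716 ± 332 CPM in ARLmon testosterone, 533 ± 203 CPM in ARLmon vehicle, 539 ± 137 CPM in WT testosterone and 181 ± 71.5 CPM in WT vehicle kidneys, with WT vehicle the low group (SD, n = 5 each).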

How the data were processed

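Poly(A) RNA of whole kidney was measured in 20 libraries, 5 in each of 4 groups. The authors deposited raw read counts per gene in 4 tables, each for a pair of groups, and a table of log2 values for 20550 genes exported from Qlucore, per the file headers, with no stated normalization. FastQC 0.11.7, HISAT2, SAMtools 1.5, HTSeq, DESeq2 and the mm10 build are named in the submitters' processing notes. Annotation, settings and strand are not given in the sources used here.

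The count tables were joined into 24762 genes by 20 libraries, and 12045 values in 1713 genes absent from a table were set to 0. Chi-square per degree of freedom between libraries of a group was at least 5.23, so none were copies. The main test was edgeR's quasi-likelihood test (edgeR 4.0.16 in R 4.3.3) after filterByExpr and TMM scaling, with 4 group means fitted over the 20 libraries and 16 residual degrees of freedom. Calls used a Benjamini-Hochberg adjusted p below 0.05 over 15549 genes, and SE is the size of the log2 difference over the square root of F. CPM are counts scaled to the library total times its TMM factor. The alternatives used DESeq2 1.42.0 and limma 3.58.1, and figures matplotlib 3.10.9.

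Named genes were Kap and Odc1, 12 rises and 12 falls, the largest among called genes without overlap whose higher group averaged 5 CPM or more, the 6 most abundant called genes, and from every list its 4 members of smallest p plus called members that went against the list's median. All members of both androgen lists are given. Ces2e, Rnf24, Slc18a1, Slco2b1, Ugt1a7c and Ugt2b37 lie outside this rule and were chosen after their values were seen. Predicted genes were only counted, and some genes that meet the rule are not reported here. The comparison, the 56 lists and the members were chosen with earlier results of these data known. Positions are from GENCODE M21 (GRCm38), matched by symbol for 95% of tested genes. Intervals cover sampling between libraries only.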

Additional observations from a re-analysis of the deposited data

Results flagged for a closer look

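Among 196 sets of 5 libraries (each named gene but Ugt1a7c in each group), 28 held a library whose gap to its nearest neighbour was over 0.71 of the whole range (Dixon's 95% value for 5 samples), and chance gives this in about 1 in 20 sets. The ARLmon testosterone library GC078612 stood far above the rest of its group at 25.1 CPM for Hsd17b14 (others 15.9 to 17.1), 5.07 CPM for Serpina1b (others 0.588 to 1.41) and 18.5 CPM for Ugt2b37 (others 1.05 to 3.24). The ARLmon testosterone library GC078612 stood far below the rest of its group at 126 CPM for Abcc4 (others 141 to 147). The ARLmon testosterone library GC078615 stood far above the rest of its group at 0.659 CPM for Ctxn3 (others 0.117 to 0.196), 1361 CPM for Hao2 (others 946 to 1051), 323 CPM for Prlr (others 182 to 220.4) and 397 CPM for Slc17a3 (others 214 to 243). In the same library there were also 24.6 CPM for Slc22a30 (others 8.36 to 12.6), 204 CPM for Slc7a12 (others 23.9 to 48.03) and 369 CPM for Slco1a6 (others 172 to 204). The ARLmon testosterone library GC078615 stood far below the rest of its group at 335 CPM for Neu1 (others 448 to 493). The WT vehicle library GC078602 stood far above the rest of its group at 54.3 CPM for Elovl6 (others 26.2 to 30.2) and 465 CPM for Fasn (others 154 to 185). The WT vehicle library GC078604 stood far above the rest of its group at 493 CPM for Cyp2a4 (others 277 to 337), 55.6 CPM for Gsta4 (others 30.9 to 37.6), 28612 CPM for Kap (others 9972 to 13352) and 263 CPM for Odc1 (others 186 to 206). In the same library there were also 696 CPM for Ugt2b38 (others 419 to 486). The WT vehicle library GC078604 stood far below the rest of its group at 4.73 CPM for Abcb1a (others 9.26 to 10.6). The WT vehicle library GC078605 stood far above the rest of its group at 1441 CPM for Aqp1 (others 1047 to 1159). The WT vehicle library GC078606 stood far above the rest of its group at 46.2 CPM for Apoh (others 3.08 to 10.8), 369.9 CPM for Fga (others 30.3 to 60.4), 135 CPM for Gc (others 31.2 to 42.4) and 20.9 CPM for Kcnip2 (others 6.72 to 9.2995). In the same library there were also 56.5 CPM for Serpina1a (others 25.4 to 26.6) and 35.4 CPM for Serpina1b (others 7.05 to 13.2). The WT vehicle library GC078606 stood far below the rest of its group at 2210.3 CPM for Napsa (others 2862 to 3084). No cause was tested for any of these values.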

How the results depend on the processing

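No paired analysis was possible because the count columns carry a library code and no replicate number. The 471 calls between ARLmon testosterone and WT vehicle kidneys became 255 (108 higher, 147 lower) with the 10 libraries fitted alone, 47 (13 higher, 34 lower) with a minimum log2 difference of 1, and 751 (305 higher, 446 lower) with DESeq2. With library size alone 370 were higher, and on the deposited log2 values 178 were lower. Median-ratio factors, either filter, the 10 most abundant genes left out and limma-voom gave 425 to 531 calls. Leaving out 1 library gave 339 to 571 calls, 123 (without GC078605) to 231 higher and 197 to 340 lower. Further settings were added after seeing the data, leaving out a pair of libraries (409 without GC078604 and GC078606, 493 without GC078604 and GC078615) and a covariate for the leading within-group axis, which gave 1735 calls (774 higher, 961 lower). That axis comes from the same residuals, so its count is no independent check. Between ARLmon vehicle and WT testosterone, a minimum log2 difference of 1 gave 424 calls against 5841. Between genotypes under vehicle, the 680 calls became 57 with that minimum, 1669 without GC078604 and GC078606, 1493 without GC078604 and GC078615, 2503 with the covariate, and 413 (without GC078605) to 1211 (without GC078604) with 1 library left out. In ARLmon kidneys the covariate gave 1104 calls between treatments against 0. The causes were not tested. Leaving aside Ugt1a7c, which was not followed through these settings, no called gene that the text names changed sign. Among those not called, Cyp4a14 became 0.31 without GC078604 and GC078606, 0.56 with limma-voom and 0.68 on the deposited log2 values, and Kcnip2 became 0.13, 0.0076 and 0.0072 under the same settings. Napsa became -0.038 without GC078604 and GC078606 and -0.0063 without GC078604 and GC078615, and on the deposited values Rnf180 became 0.018 and Srd5a2 0.36. With 1 library left out, Cyp4a14 ranged over -0.80 to 0.65, Kcnip2 over -0.29 to 0.21, Napsa over -0.069 to 0.11, Nudt19 over -0.018 to 0.19 and Rnf180 over -0.31 to 0.054. Of the 77 named genes called and followed, 25 kept the call under all alternatives and 29 lost it only with the minimum log2 difference. Among these 77, library size alone ended the calls of Aqp1, Fga, Rxra, Slco2b1 and Ttr. The deposited values ended these and those of Abcb1a, Dhrs3, Fkbp5, Kap, Kynu, Me1, Slc7a12 and Ugt1a10, the 10 libraries alone ended 18 and limma-voom 2. Depth limits the low group of the largest falls, where Apoh had 7 reads over the 5 ARLmon testosterone libraries.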

Other observations

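Of all genes tested 3.03% were called, which is the share to set further gene groups against. Of 26 lysosomal genes 2 fell, Psap and the sialidase gene Neu1 (436 ± 59.3 CPM in ARLmon testosterone and 661 ± 66.01 CPM in WT vehicle kidneys, log2 -0.60 ± 0.10, adjusted p = 0.00104), and 21 had a negative log2 difference (median -0.17, -0.08 with library size alone). Of 33 extracellular matrix genes 1 rose, the collagen chain gene Col5a2 (59.97 ± 11.7 CPM in ARLmon testosterone and 37.6 ± 4.87 CPM in WT vehicle kidneys, log2 0.67 ± 0.14, adjusted p = 0.00672). Of 25 complement and acute-phase genes 2 rose and 4 fell, and among those that fell the alpha-1-antitrypsin gene Serpina1a had 12.7, 6.09, 6.06, 3.04 and 6.08 CPM in the ARLmon testosterone libraries, against 25.4, 26.6, 26.001, 25.7 and 56.5 CPM in the WT vehicle libraries. Serpina1a fell with no overlap by a log2 difference of -2.25 ± 0.32 (adjusted p = 0.000123). The fibrinogen chain gene Fga fell by 2.18 ± 0.58 (adjusted p = 0.0435), but GC078606 alone held 369.9 CPM among the WT vehicle libraries, and without it the difference was -0.76. The call of Fga was lost without any one of GC078606, GC078613, GC078614, GC078615 and GC078616. Of 18 hydroxyacid, glyoxylate and D-amino acid oxidase genes 0 were called in edgeR, 3 in DESeq2 and 1 in limma-voom, and 9 had an unadjusted p below 0.05.

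Of 17 retinoid metabolism genes 1 rose and 2 fell, namely Adh1 and Dhrs3. Dhrs3, which reduces retinal, averaged 196 ± 31.05 CPM in ARLmon testosterone and 288 ± 46.6 CPM in WT vehicle kidneys (log2 -0.56 ± 0.13, adjusted p = 0.0188). Of 12 skeletal muscle markers 4 had enough reads to be tested, and Myh1, a fast myosin heavy chain, rose to 1.23 ± 0.423 CPM in ARLmon testosterone and 0.02396 ± 0.0355 CPM in WT vehicle kidneys (adjusted p = 0.000171), with 4 reads over the 5 WT vehicle libraries. Muscle markers summed to 34.2 to 52.5 CPM in ARLmon testosterone and 18.3 to 66.2 CPM in WT vehicle kidneys.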
